A study of Mus with 9 samples.

Results

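The tumor necrosis factor (TNF) superfamily and its receptors were examined in the hippocampus of senescence-accelerated mice. Members were taken by gene symbol from both deposited tables, as Tnf itself, the Tnfsf ligands, the Tnfrsf receptors and the Tnfaip genes, named TNF-α-induced proteins. The rule matched 39 of the 22206 probe sets of the array, which name 40 symbols of the family. There were 11 probe sets of ligands, 20 of receptors and 8 of TNF-α-induced proteins. A single probe set on chromosome 11 was shared by Tnfsf12, Tnfsf13 and their read-through transcript Tnfsfm13, so these genes cannot be told apart.

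Hippocampal RNA of 9 male mice was hybridized to Clariom S Mouse arrays, with 3 mice in each of 3 groups. SAMP8 is an inbred senescence-prone strain with early memory decline, and SAMR1 is the related senescence-resistant strain that stands for normal aging. The SAMR1 and SAMP8 groups received vehicle by mouth, named saline in the sample records and water in the methods, and the TG-treated SAMP8 group received trigonelline (TG), a plant alkaloid, at 5 mg/kg per day for 30 days and through 8 further days of behavioral testing. Mice were 16 weeks old on entering the study, hence older at dissection, which followed testing in the Morris water maze. The records name 3 arrays per group although the series text mentions duplicates, and a free-text field of the records that tells of a macrophage cell line was not used. As a model, SAMP8 and SAMR1 are separate inbred strains, so strain and senescence cannot be told apart. The tables hold 1 average per group and comparison, as log2 signal, so no value per mouse was used, no test across mice was run, and no difference given here can be set against the spread between mice. Precision is limited by the 3 arrays behind each average. In whole tissue, fewer cells of a type and less RNA per cell cannot be told apart.

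TNF family ligands are mostly trimeric membrane proteins that can be shed, and they act on receptors that either carry a death domain, which can start apoptosis, or bind TRAF adaptors, which pass the signal to NF-κB and MAP kinases. A further set of receptors binds ligand without signalling and works as a decoy. In the brain, TNF is made mainly by microglia and astrocytes, and the family takes part in neuroinflammation, synaptic scaling, axon pruning and myelination. Many other members are known from lymphocytes and bone.

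The tables list no detection call, so a background level was set from 1500 probe sets of olfactory, vomeronasal and taste receptors, genes that brain tissue is taken not to use. The 95th percentile of their averages was 5.98 in SAMR1, 5.58 in SAMP8 and 5.62 with TG, on the log2 scale. A level given with TG is that of TG-treated SAMP8, and a difference with TG is TG-treated SAMP8 minus SAMP8. A member whose average reached this level counted as at or above background in that group, and one below it may still be expressed. Of 10 microglial marker genes, 7 reached the level in at least 1 group, against 57.4% of all probe sets. The microglial genes Tmem119, C1qa and Trem2 did not. Neuronal markers were high, since 6 genes common to neurons ranged from 11.45 to 19.7 and Neurod6, a gene of hippocampal and cortical pyramidal neurons, stood at 14.86 in SAMR1, 14.85 in SAMP8 and 14.88 with TG. These genes do not tell hippocampus from cortex. Of 6 genes listed for hippocampal neurons, 5 reached background in all 3 groups, and Grp was below it in SAMR1 (5.79). Among markers of T and B cells, Cd4 and Cd2 reached background, and Cd3e, Cd3d, Cd8a, Cd79a and Ms4a1 lay below it in all groups.

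Most ligands lay below background in every group, and 10 of the 20 receptors reached it in at least 1 group. Of the 39 members, 18 were at or above background in at least 1 group and 13 in all 3 groups, where 57.4% and 50.3% of all probe sets were. By class, 3 of 11 ligands, 10 of 20 receptors and 5 of 8 TNF-α-induced proteins reached the level in at least 1 group, and 3 ligands, 6 receptors and 4 TNF-α-induced proteins did so in all 3 groups. In all 3 groups the shares of ligands (27.3%) and receptors (30%) were thus close, and both lay below the 50.3% of all probe sets. These shares describe probe sets, which differ in how brightly they bind, so signals were not ranked between genes.

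**Figure D1:**
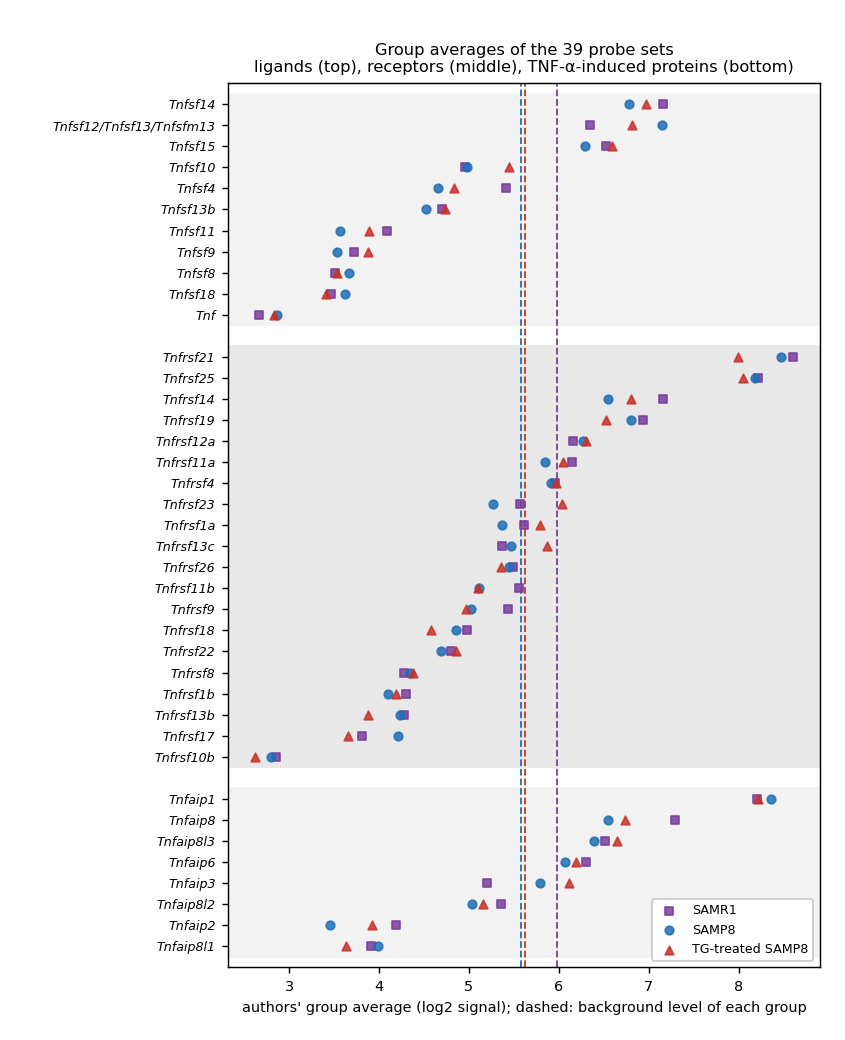
The authors' group averages (log2 signal, x axis) of the 39 probe sets are shown for SAMR1 (squares), SAMP8 (circles) and TG-treated SAMP8 (triangles), with dashed lines at the background level of each group. Of the 11 ligands 3 lie right of the lines in every group, as do 6 of 20 receptors and 4 of 8 TNF-α-induced proteins.

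Tnf, the founding ligand, stood far below background in each group. Its averages were 2.66 in SAMR1, 2.86 in SAMP8 and 2.83 with TG, which set against the background level of each group makes -3.32, -2.72 and -2.79. Its differences were 0.20 between SAMP8 and SAMR1 and -0.03 between TG-treated SAMP8 and SAMP8. At this signal the averages cannot tell whether Tnf mRNA differed between the groups, and its absence is not shown. For TNF-α protein in the hippocampus, the paper reports by ELISA a significantly higher level in SAMP8 than in SAMR1. It also reports a significantly lower level with TG than in untreated SAMP8. The Tnf gene lies on chromosome 17 from 35199367 to 35202007 in the build GRCm38. The receptors of Tnf were also low. Tnfrsf1a, the broadly expressed death domain receptor, had averages of 5.61, 5.37 and 5.79 in SAMR1, SAMP8 and TG-treated SAMP8, and reached background in TG-treated SAMP8 alone. Its average there lay below the higher level of SAMR1 (5.98), so this call depends on the level of each group. Tnfrsf1b, the receptor that binds TRAF2 and is typical of immune cells and microglia, stayed below background at 4.30, 4.10 and 4.19.

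The 3 ligands above background in all groups were Tnfsf14, Tnfsf15 and the probe set shared by Tnfsf12 and Tnfsf13. Tnfsf14, which binds Tnfrsf14 and the lymphotoxin β receptor, had averages of 7.16 in SAMR1, 6.78 in SAMP8 and 6.97 with TG. Tnfsf15, the ligand of the death receptor Tnfrsf25, stood at 6.52, 6.29 and 6.59 in the same order. Its groups lay within 0.30 of each other, the smallest range of the 3. The shared probe set of Tnfsf12, known as TWEAK, and Tnfsf13, a B cell survival factor known as APRIL, was lowest in SAMR1 at 6.34, highest in SAMP8 at 7.15 and between them in TG-treated SAMP8 at 6.81. The other 8 ligands (Tnf, Tnfsf4, Tnfsf8, Tnfsf9, Tnfsf10, Tnfsf11, Tnfsf13b and Tnfsf18) were below background in every group. They include Tnfsf10, the apoptosis-inducing ligand TRAIL, whose average in TG-treated SAMP8 (5.44) lay next to the level (log2 difference -0.18), and Tnfsf11, the osteoclast factor RANKL, at 4.09, 3.56 and 3.89.

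Of the 4 death domain receptors, Tnfrsf21 and Tnfrsf25 were above background in all groups. Tnfrsf21, a death receptor of neurons and oligodendrocytes with a part in axon pruning and myelination, had averages of 8.60 in SAMR1, 8.47 in SAMP8 and 7.99 with TG. Tnfrsf25, the receptor of Tnfsf15, stood at 8.21, 8.18 and 8.05. The death receptor for TRAIL, Tnfrsf10b, was below background in all groups, at 2.85, 2.80 and 2.62. Of the 12 receptors listed as TRAF-binding, 4 were above background in all groups. Tnfrsf14, a receptor of lymphocytes with both activating and inhibitory partners, had averages of 7.16, 6.54 and 6.80, and Tnfrsf19, a receptor of neural progenitors and astrocytes that can join the Nogo receptor complex, had 6.93, 6.80 and 6.52. Tnfrsf12a, the receptor of TWEAK, lay between 6.16 and 6.30, and Tnfrsf11a, the receptor of RANKL, between 5.84 and 6.15. Tnfrsf4 (5.96, 5.91 and 5.97) lay next to the higher level of SAMR1 (log2 difference -0.02) and above the level of the other groups. Tnfrsf13c, the B cell receptor of Tnfsf13b, reached background in TG-treated SAMP8 alone at 5.87, which is below the level of SAMR1 (5.98). The 10 receptors below background in all groups were Tnfrsf1b, Tnfrsf8, Tnfrsf9, Tnfrsf10b, Tnfrsf11b, Tnfrsf13b, Tnfrsf17, Tnfrsf18, Tnfrsf22 and Tnfrsf26, most of them known from lymphocytes.

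Setting ligands beside their receptors, 19 ligand and receptor pairs could be formed from members. Some members stand in several pairs, so the pairs are not independent. No share of pairs over the whole array was computed, and of single probe sets 50.3% reached background in all 3 groups. In 3 pairs both partners were at or above background in all groups, namely Tnfsf12 with Tnfrsf12a, Tnfsf14 with Tnfrsf14 and Tnfsf15 with Tnfrsf25. The first of them rests on the shared probe set. With the 99th percentile of the chemosensory receptors as the level, Tnfrsf12a and Tnfsf15 reached it in no group. The first and last of these pairs thus depend on the level. In 9 pairs neither partner reached background in any group, among them Tnf with Tnfrsf1b, Tnfsf10 with Tnfrsf10b and Tnfsf18 with Tnfrsf18. The other 7 pairs had 1 partner that did, such as Tnfrsf11a without its ligand Tnfsf11 and the shared Tnfsf13 probe set without the receptors Tnfrsf13b and Tnfrsf17.

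Of the TNF-α-induced proteins, Tnfaip1, an adaptor of a cullin ubiquitin ligase, was at 8.20 in SAMR1, 8.36 in SAMP8 and 8.21 with TG. Tnfaip8, a regulator of apoptosis, stood at 7.29, 6.54 and 6.73, and its relative Tnfaip8l3, a phosphoinositide transfer protein, at 6.51, 6.39 and 6.65. Tnfaip6, a hyaluronan-binding protein, lay between 6.07 and 6.30. Tnfaip3, also called A20, an enzyme that edits ubiquitin chains and restrains NF-κB, had averages of 5.20 in SAMR1, 5.79 in SAMP8 and 6.11 with TG, and was below background in SAMR1 alone. Tnfaip2, Tnfaip8l1 and Tnfaip8l2 were below background in all groups.

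The strain comparison asks how senescence-prone mice differ from resistant ones. With 1 average per group, a difference of 1.5-fold or more, which is 0.58 on the log2 scale, was counted as past the fold limit. Between SAMP8 and SAMR1, 6 of 39 members (15.4%) were past it, against 11.1% of all probe sets. Of the members 2 were higher and 4 lower in SAMP8, and of all probe sets 5.00% were higher and 6.08% lower. Of the chemosensory receptors, 12.8% were past it. At a limit of 1.2-fold 14 members were counted and 40.8% of all probe sets, and at 2-fold no member and 2.31%.

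The probe set of Tnfsf12 and Tnfsf13 had the largest difference, 0.81 higher in SAMP8 than in SAMR1 on the log2 scale, which is 1.75-fold. In the build GRCm38, Tnfsf13 lies on chromosome 11 from 69682577 to 69685554. Tnfaip3 was 1.51-fold higher in SAMP8, a log2 difference of 0.59 that lies at the limit within the rounding of the averages (0.01). It lies on chromosome 10 from 19000910 to 19015410. With TG it stood higher still, and in SAMR1 it was below background.

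Lower in SAMP8 by 1.5-fold or more were Tnfaip8 (log2 difference -0.75), Tnfsf4 (-0.75), Tnfaip2 (-0.74) and Tnfrsf14 (-0.62). Tnfaip8 and Tnfrsf14 were above background in all groups, and the difference of Tnfrsf14 amounts to 1.54-fold. Tnfrsf14 fell short of the limit, at -0.57, when each group was centred on its median over all probe sets. Tnfsf4, a ligand of antigen-presenting cells that costimulates T cells, went from 5.41 in SAMR1 to 4.66 in SAMP8, and Tnfaip2, a gene of endothelial and myeloid cells, from 4.19 to 3.45. Both lay below background in each group. Next outside the limit were Tnfsf11 at -0.53 and the decoy receptor Tnfrsf11b at -0.44, both below background. The study chose Tnfaip2, Tnfaip8, Tnfrsf14 and Tnfsf11 for display from these same arrays, so they are not independent evidence of a direction. Its heat map data place SAMP8 above SAMR1 for these genes, opposite to the deposited averages used here, and which order holds could not be settled.

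At any size, 27 members were lower and 12 higher in SAMP8, with 16 of 20 receptors, 6 of 11 ligands and 5 of 8 TNF-α-induced proteins lower. Of all probe sets 49.0% were lower and 49.5% higher, but of the chemosensory receptors 65.3% were lower. The median difference of the 39 members was -0.13, that of the chemosensory receptors -0.11 and that of all probe sets 0.00. Low-signal probe sets as a whole were thus lower in SAMP8, and their background level differed by -0.40 between SAMP8 and SAMR1. After the median difference of probe sets of like signal was taken off, 22 members were lower and 15 higher, and of the receptors 11 were lower and 7 higher. By class the medians were -0.18 for ligands, -0.12 for receptors and -0.175 for TNF-α-induced proteins, and so ligands and receptors lay within 0.06 of each other. Set against probe sets of like signal, they were -0.09, -0.06 and -0.155.

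**Figure D2:**
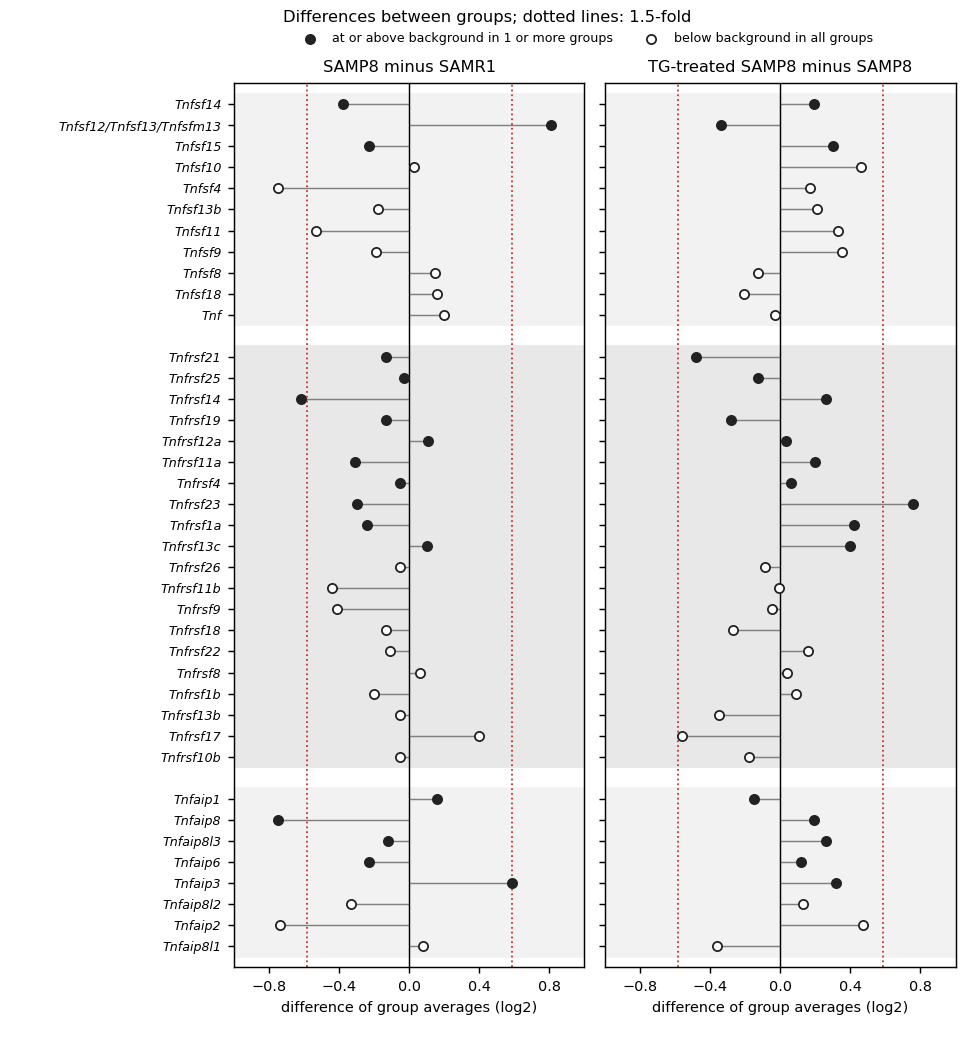
Differences of the authors' group averages (log2, x axis) are shown for SAMP8 minus SAMR1 (left) and TG-treated SAMP8 minus SAMP8 (right), which share the SAMP8 average. Filled points reached background in at least 1 group, open points in none, and dotted lines mark 1.5-fold: 6 members lie outside them on the left and Tnfrsf23 alone on the right.

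The TG comparison asks what the treatment altered within SAMP8. Between TG-treated SAMP8 and SAMP8, 1 of 39 members (2.56%) was past 1.5-fold, against 8.21% of all probe sets (4.48% higher and 3.74% lower). It was Tnfrsf23, a receptor that binds TRAIL without a death domain, with averages of 5.57 in SAMR1, 5.27 in SAMP8 and 6.03 with TG. This is a log2 difference of 0.76, or 1.69-fold. In TG-treated SAMP8 the gene exceeded the background level by 0.41, against -0.41 in SAMR1 and -0.31 in SAMP8. Its average there lay below the 99th percentile of the chemosensory receptors (6.63) and the median of all probe sets (6.07) in that group. Whether Tnfrsf23 reached background thus depends on the level chosen. The paper lists Tnfrsf23 among its top upregulated genes with TG, at a larger fold change than the averages give here. Why the sizes differ was not examined. That list comes from these same arrays, so the place of Tnfrsf23 here is not independent evidence. Of the chemosensory receptors 6.00% were higher by 1.5-fold or more. At 1.2-fold 16 members were counted and 38.2% of all probe sets, and at 2-fold no member and 0.815%.

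Tnfrsf23 lies on chromosome 7 from 143665807 to 143686436, beside the related receptors Tnfrsf22 (143634808 to 143649675) and Tnfrsf26 (143607685 to 143627845). These genes are close relatives, and whether their probes bind each other's transcripts was not examined. The neighbours did not share its difference with TG. Tnfrsf22, the other decoy receptor of this group, had 4.80 in SAMR1, 4.69 in SAMP8 and 4.85 with TG, a difference with TG of 0.16, and Tnfrsf26 had 5.49, 5.44 and 5.35, a difference of -0.09. The third decoy receptor, Tnfrsf11b, differed by -0.01 with TG.

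No member was lower with TG by 1.5-fold. The nearest were Tnfrsf17, a plasma cell receptor below background in each group, with averages of 3.81, 4.21 and 3.65 and a difference of -0.56, and Tnfrsf21 at -0.48, which is 1.39-fold. Centring each group on its median over all probe sets brought Tnfrsf17 past the limit and made the count 2. On the other side, Tnfaip2 (0.47), Tnfsf10 (0.46), Tnfrsf1a (0.42) and Tnfrsf13c (0.40) were higher with TG, each under the limit, and the first 2 of these lay below background throughout. The members that stood out between the strains differed less with TG. The Tnfsf12 and Tnfsf13 probe set had a log2 difference of -0.34, Tnfaip3 was higher by 0.32, Tnfrsf14 by 0.26, Tnfaip8 by 0.19 and Tnfsf4 by 0.17. Because the SAMP8 average enters both comparisons, these values are not a second measurement of the strain difference. Tnfsf11, below background in every group, was higher with TG by 0.33. The deposited averages of Tnfaip2, Tnfrsf14 and Tnfsf11 were thus all higher with TG, each under the limit. For these genes the paper reports the opposite, a significant decrease with TG. Which direction holds could not be settled.

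At any size, 23 members were higher and 16 lower with TG. Of all probe sets 50.0% were higher and 48.3% lower, and of the chemosensory receptors 58.7% were higher. The median difference was 0.19 for ligands, 0.01 for receptors and 0.16 for TNF-α-induced proteins, beside 0.06 for chemosensory receptors and 0.01 for all probe sets. Receptors were split evenly, with 10 higher and 10 lower, and 7 of 11 ligands and 6 of 8 TNF-α-induced proteins were higher. The difference between the ligand and receptor medians was not tested, and 8 of the 11 ligands lay below background.

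**Figure D3:**
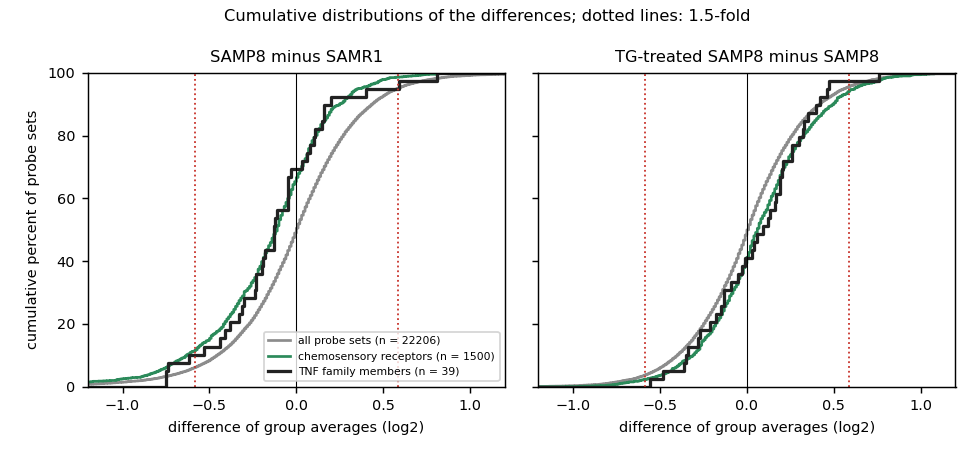
The cumulative percent of probe sets (y axis) is drawn against the difference of group averages (log2, x axis) for all 22206 probe sets, the 1500 chemosensory receptors and the 39 members, for SAMP8 minus SAMR1 (left) and TG-treated SAMP8 minus SAMP8 (right). The line of the members runs close to that of the chemosensory receptors on both sides, with medians of -0.13 and -0.11 on the left and 0.09 and 0.06 on the right.

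TG-treated SAMP8 was also set against SAMR1, which shares its averages with both comparisons above. Here 2 of 39 members (5.13%) were past 1.5-fold, 1 higher and 1 lower, against 10.5% of all probe sets (5.62% higher and 4.83% lower). At 1.2-fold 16 members were counted and 40.5% of all probe sets, and at 2-fold no member and 1.85%. At any size 17 members were higher and 22 lower, and of all probe sets 48.1% and 50.4%. Tnfaip3 was 1.88-fold higher in TG-treated SAMP8, at a log2 difference of 0.91, the largest of any member in any comparison. Its average was lowest in SAMR1, below background, and highest in TG-treated SAMP8. Tnfrsf21 was 1.53-fold lower (log2 difference -0.61), with its average in TG-treated SAMP8 below those of SAMR1 and SAMP8. It lies on chromosome 17 from 43016555 to 43089188. Next outside were Tnfsf4 at -0.58, just short of the unrounded limit, and Tnfaip8 at -0.56. The class medians were 0.03 for ligands, -0.15 for receptors and -0.155 for TNF-α-induced proteins.

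Some members lie close together, and 9 of the 39 are on chromosome 4. With a gap of at most 200 kb, 7 pairs of neighbours were found in GRCm38. How many other genes of the array lie on chromosome 4 or have such neighbours was not counted. Neighbours could differ in sign. Tnfsf4 and Tnfsf18, on chromosome 1 with 76451 bases between them, differed by -0.75 and 0.16 between the strains. Tnfsf15 and Tnfsf8 on chromosome 4 differed by -0.23 and 0.15. Tnfsf4, Tnfsf18 and Tnfsf8 were below background in all groups, so these opposite signs rest on low signals. Tnfsf9 and Tnfsf14 on chromosome 17 were both lower in SAMP8, at -0.19 and -0.38, and Tnfrsf4 and Tnfrsf18 on chromosome 4 differed by -0.05 and -0.13.

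Some members of the superfamilies carry other symbols. For comparison, 57.4% of all probe sets reached background in at least 1 group. Past the limit were 11.1% of all probe sets between the strains and 8.21% with TG. Of 6 such ligands, Lta and Eda reached background, and Ltb, Cd40lg, Fasl and Cd70 did not. Lta, lymphotoxin α, which lies next to Tnf in the genome, had averages of 7.03 in SAMR1, 6.43 in SAMP8 and 6.76 with TG, and its strain difference of -0.60 was the only one of the 6 past the limit. Of 8 such receptors, Ltbr, Edar and Relt reached background, and Cd40, Fas, Cd27, Ngfr and Eda2r did not. Edar, the ectodysplasin receptor of skin appendages, had averages of 6.46, 5.51 and 6.65. Its log2 difference was -0.95 between the strains and 1.14 with TG, so it lay past 2-fold with TG, which no member selected by the rule did. Edar was below background in SAMP8 alone, and that SAMP8 average enters both differences. Fas, the death receptor, was 0.65 higher with TG, from 4.27 to 4.92, while below background.

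Downstream, 17 of 22 receptor adaptors and death pathway genes reached background in at least 1 group, against 57.4% of all probe sets. Between SAMP8 and SAMR1, Traf2, an adaptor of both TNF receptors, was higher (0.68) and Ripk3, a necroptosis kinase below background, lower (-0.68), and the other 20 were within 1.5-fold. With TG, Mlkl, the effector of necroptosis and also below background, was higher (0.67), and Traf6 lower (-0.69), with averages of 7.28, 7.85 and 7.16. Of all probe sets, 11.1% were past the limit between the strains and 8.21% with TG. The medians of the 22 were 0.05 between the strains and 0.045 with TG. Traf2 had averages of 5.08, 5.76 and 6.25, and was below background in SAMR1 alone. Of 3 genes for the processing of TNF, Adam17, the protease that sheds it, was above background at 7.90, 7.97 and 7.85, and Rhbdf1, below background, was lower with TG (-0.67).

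Of 14 genes known to be induced by TNF, 4 reached background, namely Nfkbia, Vcam1, Ptgs2 and Sod2, against 57.4% of all probe sets. Il6, Il1b, Ccl2, Cxcl1, Cxcl10, Icam1, Sele, Mmp9, Relb and Nfkb2 lay below it. Between the strains, Ccl2 (-0.84) and Nfkb2 (-0.73) were past the limit, both lower in SAMP8 and below background. With TG, Sod2, the mitochondrial superoxide dismutase, was higher by 0.68, and Ptgs2, the inducible cyclooxygenase of neurons, was lower, with averages of 8.03, 7.80 and 7.18. Nfkbia, the inhibitor of NF-κB and its direct target, differed by 0.36 between the strains and by -0.28 with TG. The medians of the 14 were -0.015 and -0.085. Past the limit in these comparisons were 11.1% and 8.21% of all probe sets.

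**Figure D4:**
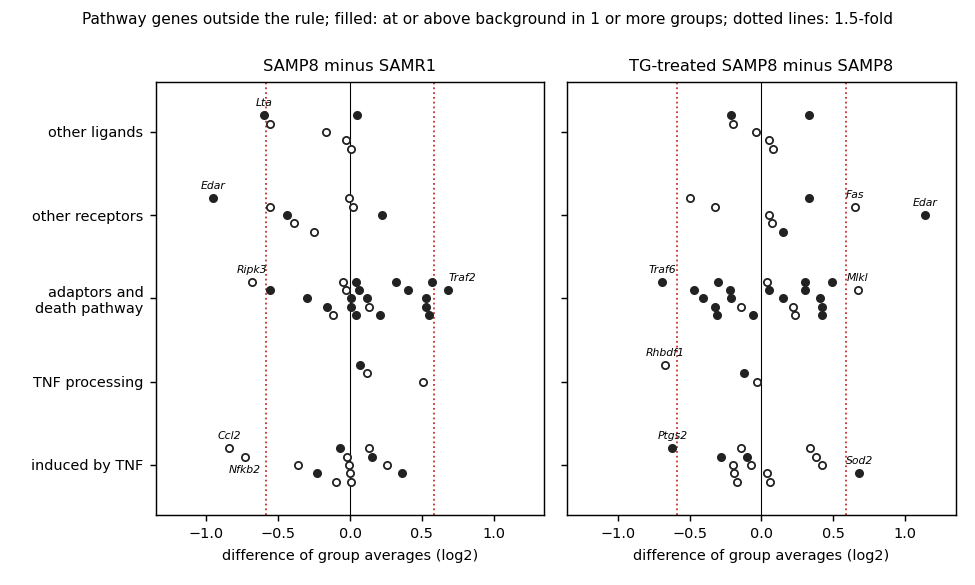
Differences of group averages (log2, x axis) are drawn for genes of the pathway outside the symbol rule, by list (y axis), with genes past 1.5-fold named; filled points reached background in at least 1 group. Edar lies furthest out in both comparisons, at -0.95 and 1.14, which share its SAMP8 average.

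Markers of cells that use this family also differed between the groups. They are set beside the 11.1% of all probe sets past the limit between the strains and 8.21% with TG. Of the 10 microglial genes, Aif1 (1.51), P2ry12 (0.86), C1qb (0.80) and Itgam (0.70) were past the limit and higher in SAMP8 than in SAMR1. Trem2 (-0.70) and C1qa (-0.61), both below background, were lower. C1qb reached background in SAMP8 alone, and Aif1 was below it in SAMR1. With TG, C1qa (0.67) alone of the 10 was past the limit, and was higher. The mean log2 signal of the 10 was 7.40 in SAMR1, 7.59 in SAMP8 and 7.56 with TG. Of 8 meningeal fibroblast genes, Igf2 (1.58), Fmod (1.43) and Ogn (0.72) were past the limit and higher in SAMP8. Col1a2 (-0.64) and Lum (-0.60) were past it and lower. Fmod reached background in SAMP8 alone, and Col1a2 was below background in SAMP8. With TG, 4 of the 8 were lower past the limit and none higher past it, while 3 were higher at any size. The mean of the 8 was 7.06 in SAMR1, 7.30 in SAMP8 and 6.67 with TG. Of 6 smooth muscle and pericyte genes, Acta2 (2.19) and Rgs5 (1.29) were past the limit and higher in SAMP8. Tagln (-0.83), below background, was past the limit and lower. With TG, Acta2 (-2.17) and Myh11 (-0.76) were past the limit and lower, and Tagln (0.71) was past it and higher. Acta2 reached background in SAMP8 alone. Of 6 astrocyte genes, Gfap (0.95) and Slc1a3 (0.62) were past the limit and higher in SAMP8, and none was past it with TG. Mrc1, alone of 5 genes of border macrophages, was past the limit between the strains. It stood at 5.51 in SAMR1, below background, and 6.51 in SAMP8. Of 6 endothelial genes, Flt1 (0.66) was past the limit and higher in SAMP8. All 6 were lower with TG, of which Slco1a4 was past the limit. The mean of the 6 was 7.54 in SAMR1, 7.88 in SAMP8 and 7.51 with TG. Among genes of hippocampal neurons, Calb1 (0.70) and Prox1 (0.59) were past the limit between the strains, and Prox1 (-0.85) and Zbtb20 (-0.65) with TG. Of 6 choroid plexus genes, Ttr (0.88) and Kl (0.67) were past the limit and higher in SAMP8. With TG, Ttr (0.72) was higher and Kl (-0.79) lower. Of 6 oligodendrocyte genes, Mobp (-0.80) was past the limit between the strains and Mag (0.71) with TG. Alas2 (-1.06), a red blood cell gene below background, was lower in SAMP8. Because the SAMP8 average enters both comparisons, a marker with opposite signs in them does not give 2 separate measurements. The part of any of these markers in the differences of the TNF family was not tested.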

How the data were processed

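Values were taken from 2 deposited tables, 1 for each comparison of the study. Per the file headers and the methods, the authors hybridized hippocampal RNA to Clariom S Mouse arrays, normalized the intensities by SST-RMA in the Transcriptome Analysis Console and averaged the 3 arrays of each group, so the deposited values are log2 group averages, rounded to 0.01, for 22206 probe sets (annotation for mm10). The tables also hold the authors' fold changes, p-values and adjusted p-values, which were not used. The SAMP8 averages were identical in both tables.

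Differences of averages were computed over the whole array, counted at 1.5-fold, and given without a p-value, since no values per array were used. Background was the 95th percentile of 1500 chemosensory receptor probe sets (symbols starting Olfr, Vmn1r, Vmn2r, Tas1r or Tas2r). For centring, either the median of each group or the median difference within each of 20 classes of mean signal was subtracted. Where a gene of another list had several probe sets, the one with the highest mean signal was used. Positions are those of RefSeq genes in GRCm38.p6, in which all 39 members were found. The values named are those of Tnf and its receptors, Tnfrsf23, members past 1.5-fold or next to that limit, and the 3 members of each class furthest above background. Other members were added after their values were seen. The members and lists were chosen with earlier results of these data known. A marker of the T and B cell list is not reported here. The counting was tested on simulated data. Alternatives were other background levels, fold limits and centrings, the removal of low signals, and the removal of probe sets with several symbols. Python 3.11.15 with numpy 2.4.6, pandas 2.3.3 and matplotlib 3.10.9 was used.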

Additional observations from a re-analysis of the deposited data

How the results depend on the processing

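The number of members at or above background, 18 of 39, depended most on the level. It was 9 with the 99th percentile of the chemosensory receptors and 3 (Tnfrsf21, Tnfrsf25 and Tnfaip1) with the 95th percentile of keratin-associated protein and β-defensin probe sets, and between 13 and 22 under the 3 other alternatives. Moving the fold limit to 1.2 gave 14 members between SAMP8 and SAMR1, 16 with TG and 16 between TG-treated SAMP8 and SAMR1, and at 2-fold all 3 counts were 0. With TG the count of 1 became 2 under both centrings, by the addition of Tnfrsf17. Centring each group on its median over all probe sets took Tnfrsf14 to -0.57 between the strains and below the limit, and the other 8 differences past 1.5-fold stayed past it under both centrings. No difference past the limit turned its sign under either centring. Among members at or above background in a group compared, the median was 0.13 for receptors with TG and 0.01 for TNF-α-induced proteins between TG-treated SAMP8 and SAMR1, against 0.01 and -0.155 over all. This filter admits Tnfrsf1a, Tnfrsf13c, Tnfrsf23 and Tnfaip3 through their higher group alone. In members at or above background in both groups compared, an alternative chosen after seeing the data, these medians were 0.03 and -0.05, and that of receptors between TG-treated SAMP8 and SAMR1 was -0.26, against -0.15 over all. Signal over background limits the 21 members that lay below the level in all groups. No paired analysis was possible because the tables give 1 average per group and no column carries a replicate number, and for the same reason no replicate could be left out.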
